A study of Mus musculus with 4 samples.

Results

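The genes described here are 10 immune checkpoint ligands and related immune-regulatory genes of tumour cells, taken by their Ensembl IDs from the 53465 IDs of the count table: Cd274, Pdcd1lg2, Cd276, Pvr, Nectin2, Cd47, Lgals9, Lgals3, Nt5e and Hmgb1. All 10 were found, and all 10 had a mean of at least 1 CPM (counts scaled to a common library size) over the libraries, as did 12920 genes of the table. RNA was sequenced from Hepa 1-6 cells, a mouse hepatocellular carcinoma line, that carried a control guide (sgcontrol, labelled WT) or a guide for Usp5, a deubiquitinating enzyme (sgUsp5, labelled Usp5 Knockdown). For each guide, 1 input library was made from the lysate and 1 library from RNA precipitated with an antibody to YTHDF1 (RNA immunoprecipitation, RIP), so that each of the 4 groups held 1 library. Whether the cells with a guide were a clone or a pool is not given in the sources used here. The term line is used below for the cells of 1 guide, although all are Hepa 1-6.

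Tumour cells carry surface proteins that restrain T cells, natural killer cells and macrophages by binding inhibitory receptors on them. CD274 (PD-L1) and PDCD1LG2 (PD-L2) bind PD-1 on T cells, PVR and NECTIN2 bind TIGIT, and CD47 binds SIRPA on macrophages. YTHDF1 is a reader of N6-methyladenosine, a methyl mark on mRNA, and works in the cytoplasm, and the series title links USP5, YTHDF1 and immune surveillance of cancer. The comparisons ask whether RNAs of these genes were over- or under-represented in the YTHDF1 precipitate, and whether their levels differed with the Usp5 guide.

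The libraries held between 29898171 and 33941019 counts. A difference between 2 libraries has no replicate check and carries no p-value. The size rule asked for a ratio of 2-fold or more and a 95% counting interval without the value of no difference. Such intervals hold for the error of counting alone, because each group held 1 library. Whether copies of 1 cDNA made by PCR were counted as separate reads is not given in the sources used here. If they were, the intervals are too narrow even for that error. The scatter between 2 libraries is given as the central 95% of the log2 ratios of the 1000 compared genes nearest in level, called the spread below. By construction 5% of those genes lie outside it, and it includes whatever the guide or the antibody did to them. RIP against input was also tested over both lines. The IDs of Usp5, of Ythdf1 and of cell type markers were not paired with names here, so neither the knockdown label nor the cell type was checked.

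Cd274 (ENSMUSG00000016496) lies on chromosome 19 at 29362107 to 29388095 of GRCm38, the assembly also called mm10, and Pdcd1lg2 (ENSMUSG00000016498) follows at 29410919 to 29472927, with 22823 bases between them (RefSeq positions, here and below). The 250 bases before the annotated start are shown for this pair of neighbours, whose log2 ratios had opposite signs in every comparison of 2 libraries below, and for Lgals3, chosen after its values were seen as the gene beyond the spread between the guides in both fractions. They come from RefSeq (GRCm38.p6, plus strand) at chr19:29367188-29367437, chr19:29410669-29410918 and chr14:47373610-47373859. The Cd274 window belongs to a start inside the annotated span of the gene. Capitals mark matches, on either strand, to 5 motifs: the interferon-gamma activated site (TTCNNNGAA), the core of the interferon-stimulated response element (GAAANNGAA), the E-box (CACGTG), the AP-1 site (TGANTCA) and the GC box (GGGCGG).
Cd274: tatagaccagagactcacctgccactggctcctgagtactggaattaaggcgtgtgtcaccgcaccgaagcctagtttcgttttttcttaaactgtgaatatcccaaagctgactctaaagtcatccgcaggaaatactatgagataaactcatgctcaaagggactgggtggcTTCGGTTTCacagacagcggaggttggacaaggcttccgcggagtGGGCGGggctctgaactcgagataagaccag
Pdcd1lg2: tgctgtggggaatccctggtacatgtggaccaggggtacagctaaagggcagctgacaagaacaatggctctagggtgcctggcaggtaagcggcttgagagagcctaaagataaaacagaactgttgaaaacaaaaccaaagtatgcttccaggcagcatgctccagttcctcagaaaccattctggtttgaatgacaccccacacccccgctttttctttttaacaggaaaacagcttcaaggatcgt
Lgals3: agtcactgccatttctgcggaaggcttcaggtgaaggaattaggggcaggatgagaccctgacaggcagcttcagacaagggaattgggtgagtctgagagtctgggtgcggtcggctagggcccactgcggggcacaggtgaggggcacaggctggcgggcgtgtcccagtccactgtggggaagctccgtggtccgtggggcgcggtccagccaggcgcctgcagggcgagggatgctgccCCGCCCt

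In the Cd274 window the interferon response core starts 76 bases before the annotated start, on the minus strand, and a GC box 31 bases before it. The Lgals3 window holds a GC box that starts 7 bases before the start, and the Pdcd1lg2 window holds none of the 5 motifs. Of 27025 promoters of this length, 7.16% hold the interferon response core and 32.9% the GC box. Promoters were found for 9 of the 10 genes, and the interferon response core was also in that of Lgals9. These matches describe the letters only. The libraries measured RNA, not transcription or binding at these windows.

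All 10 RNAs were detected, but Nt5e was not detected in every library. The other 9 genes had at least 369 reads in each library. Gene lengths were not used, so levels are compared between libraries of 1 gene and not between genes. Nt5e, which encodes the ectoenzyme CD73 that makes adenosine from AMP, had 125 (input) and 62 (RIP) reads with the control guide and 0 (input) and 45 (RIP) reads with the Usp5 guide. Its reads were thus absent from 1 input and present in the RIP library of the same lysate.

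**Figure D1:**
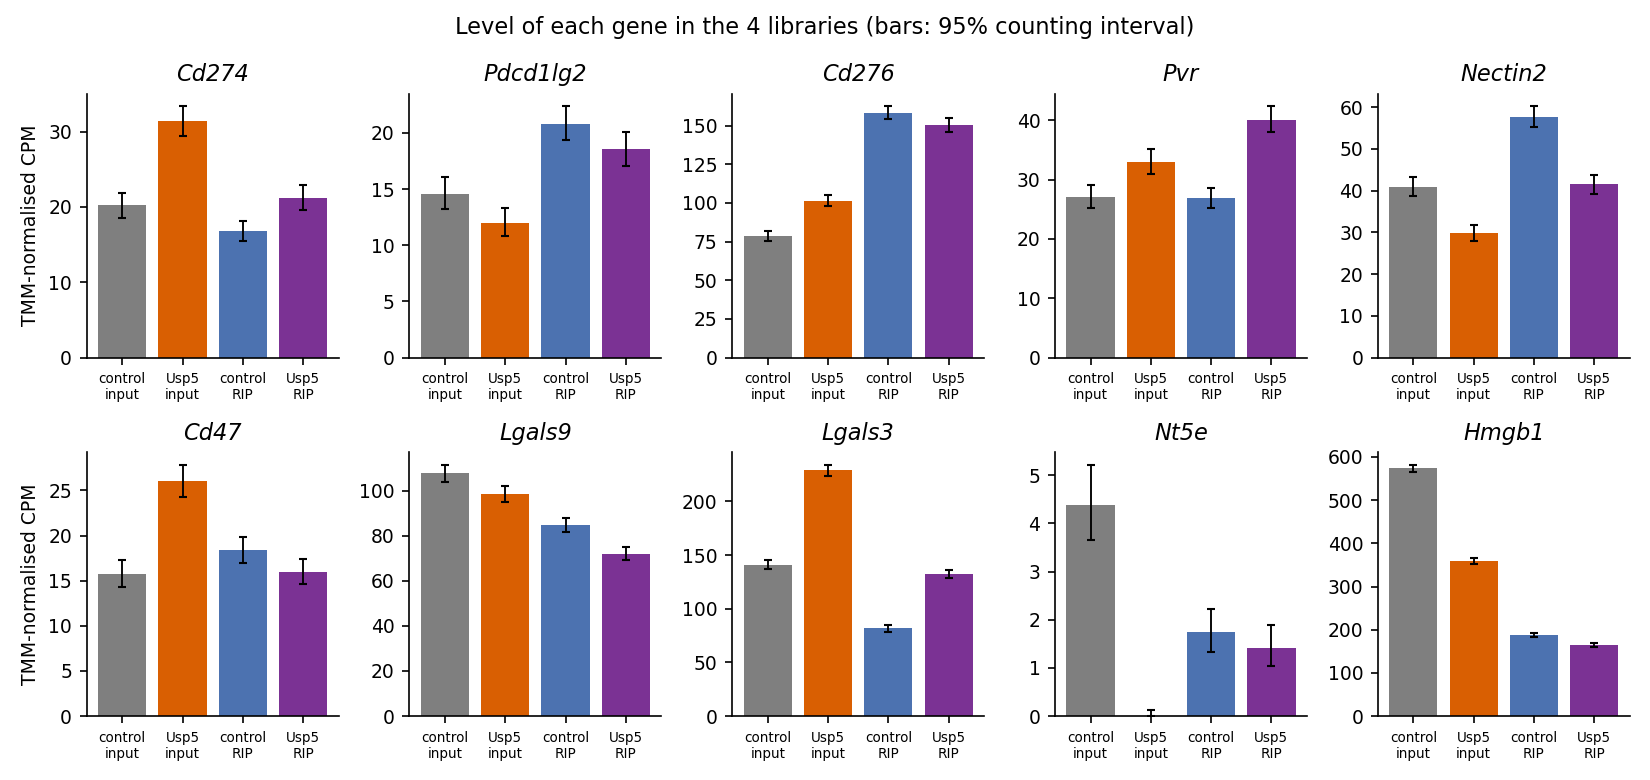
TMM-normalised CPM (vertical axes, from 0, with a scale of their own for each gene) of the 10 genes in the 4 libraries; bars are single libraries and error bars are 95% counting intervals. Hmgb1 is highest in the control input at 573.5 CPM, Lgals3 is highest in the Usp5 input at 229 CPM, and Nt5e has 0 reads in the Usp5 input.

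The first comparison set the YTHDF1 precipitate against the input of the same lysate. Cd276 was over-represented in the precipitate of both lines, and Hmgb1 and Lgals3 were under-represented in both. In a test over both lines that kept the line as a block, these were the 3 genes of the 10 with an adjusted p under 0.05 (edgeR's quasi-likelihood test, Benjamini-Hochberg over 12920 genes, 1 residual degree of freedom). Its p-values rest on these 2 lysates, which differ in the guide, so an effect of the guide on the enrichment counts as error. They also draw on the scatter of the other genes compared. No control precipitate was used here, so binding to the antibody and to the beads cannot be told apart. Of all genes compared, 10.3% were called higher and 11.3% lower by this test, so 1 higher and 2 lower of 10 is near the background. Cd274 and the other 6 genes did not pass. By the size rule, 1 of the 10 was higher and 2 were lower in the control line, beside 18.4% and 15.0% of all genes. In the Usp5 line 1 was higher and 1 lower, beside 15.9% and 13.7%. The median log2 ratio of the 10 was -0.14 in the control and -0.08 in the Usp5 line, beside 0.03 and 0.02 over all genes. Without Nt5e, which had 0 reads in the Usp5 input, the medians of the other 9 were -0.01 and -0.45.

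The pair of PD-1 ligands is described first. Cd274 had 576 (input) and 597 (RIP) reads with the control guide and 964 (input) and 672 (RIP) reads with the Usp5 guide. After normalisation these were 20.2 and 16.7 CPM in the control line and 31.3 and 21.2 CPM in the Usp5 line. Its log2 ratio of RIP over input was -0.27 (counting interval -0.44 to -0.10) with the control guide and -0.56 (-0.71 to -0.42) with the Usp5 guide, inside the spread of -1.70 to 1.62 and of -1.61 to 1.54. The RIP level was below the input level in both lines, by less than genes of its level scatter, and the test over both lines gave a log2 ratio of -0.42 with an adjusted p of 0.394. Pdcd1lg2 had 416 and 743 reads in the control input and RIP and 369 and 587 in the Usp5 input and RIP. Its log2 enrichments were 0.51 (0.34 to 0.69) and 0.63 (0.44 to 0.82), on the other side of no difference from Cd274 in both lines, with an adjusted p of 0.295.

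Cd276 (ENSMUSG00000035914, chromosome 9 at 58524300 to 58555033) encodes B7-H3, a B7 family protein with inhibitory effects on T cells. It had 2241 (input) and 5650 (RIP) reads with the control guide and 3120 (input) and 4765 (RIP) reads with the Usp5 guide. Both RIP libraries, at 158 and 150 CPM, lay above both inputs, at 78.5 and 101 CPM. The log2 enrichment was 1.01 (0.94 to 1.08) in the control line, 2.02-fold, and 0.57 (0.50 to 0.63) in the Usp5 line, 1.48-fold. The test over both lines gave 0.79 with an adjusted p of 0.0116. The 2-fold mark in the control line was passed narrowly, and with DESeq2 size factors the value was 0.97, under it. Each ratio was inside the spread, whose upper ends were 1.37 and 1.22.

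The TIGIT ligands were Pvr (ENSMUSG00000040511, chromosome 7 at 19903578 to 19921143), which also binds CD96 and the activating receptor CD226, and Nectin2 (ENSMUSG00000062300, chromosome 7 at 19716644 to 19749573). Pvr had 771 and 959 reads in the control input and RIP and 1015 and 1271 in the Usp5 input and RIP. Its log2 enrichment was -0.01 (-0.15 to 0.13) in the control line, 0.17 when scaled by library totals, and 0.28 (0.16 to 0.40) in the Usp5 line. For Nectin2 the reads were 1168 and 2059 in the control line and 919 and 1315 in the Usp5 line. Its enrichments were 0.50 (0.39 to 0.60) and 0.47 (0.35 to 0.60), and neither gene passed the test (adjusted p 0.771 for Pvr and 0.183 for Nectin2).

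Cd47 (ENSMUSG00000055447, chromosome 16 at 49851328 to 49912503), whose protein signals to macrophages not to engulf the cell, went in opposite directions. With the control guide it had 449 input and 656 RIP reads, but with the Usp5 guide 800 input and 507 RIP reads. The log2 enrichment was 0.22 (0.05 to 0.40) with the control guide and -0.70 (-0.86 to -0.54) with the Usp5 guide. The Usp5 input stood above the other 3 libraries, at 26.0 CPM against 15.7 to 18.4 CPM. Both enrichments were within the spread, and over both lines the adjusted p was 0.708.

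The galectins are proteins that bind sugars, among them those on cell surfaces. Lgals9 (ENSMUSG00000001123, chromosome 11 at 78962979 to 78984924), whose protein binds TIM-3 on T cells, had 3074 and 3019 reads in the control input and RIP and 3026 and 2282 in the Usp5 input and RIP. Its log2 enrichments of -0.35 (-0.42 to -0.28) and -0.45 (-0.53 to -0.37) did not pass the test (adjusted p 0.153). Lgals3 (ENSMUSG00000050335, chromosome 14 at 47373860 to 47386167) had 4028 and 2913 reads in the control input and RIP, and 7045 and 4196 in the Usp5 input and RIP. Its enrichment was -0.79 in each line (-0.86 to -0.72 and -0.85 to -0.73), or 1.73-fold lower in the precipitate, with an adjusted p of 0.00552. Without the line as a block the adjusted p from edgeR was 0.116. Both enrichments were inside the spread, whose lower ends were -1.58 and -1.37, and neither reached the 2-fold mark.

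Hmgb1 (ENSMUSG00000066551, chromosome 5 at 149046702 to 149053057) encodes a chromatin protein that acts as an alarm signal when released from dying cells. With the control guide 16366 reads were counted in the input and 6728 in the RIP, and with the Usp5 guide 11021 and 5217. Both inputs, at 573.5 and 358 CPM, lay above both RIP libraries, at 189 and 165 CPM. The log2 enrichment was -1.60 (-1.65 to -1.56) in the control line, 3.04-fold lower, and -1.12 (-1.17 to -1.07) in the Usp5 line, 2.18-fold lower, and -0.99 when scaled by library totals. The control value lay just below the lower end of the spread, -1.59, and the Usp5 value inside it, above a lower end of -1.28. The test over both lines gave -1.36 with an adjusted p of 0.000331. Hmgb1 has many processed pseudogenes, and how reads with several matches were counted is not given in the sources used here.

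Nt5e (ENSMUSG00000032420, chromosome 9 at 88327609 to 88372089) had a log2 enrichment of -1.33 (-1.80 to -0.88) in the control line. In the Usp5 line the 45 RIP reads stood against 0 input reads, 14.6-fold higher when 0 is taken as 3 counts in that library. The counting interval of this log2 ratio began at 3.51. The test over both lines gave an adjusted p of 0.729. Of the 1000 genes nearest to Nt5e in level, 292 had 0 reads in 1 input and at least 50 in the other. Level here was the mean log2 CPM, which 0 reads in 1 library lower strongly, while the filter asked for a mean of at least 1 CPM. That choice favours genes with uneven counts, so these counts do not show how frequent such a 0 is. In the RIP libraries, 19 (control) and 25 (Usp5) of these genes had 0 reads, beside 196 and 209 in the inputs.

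**Figure D2:**
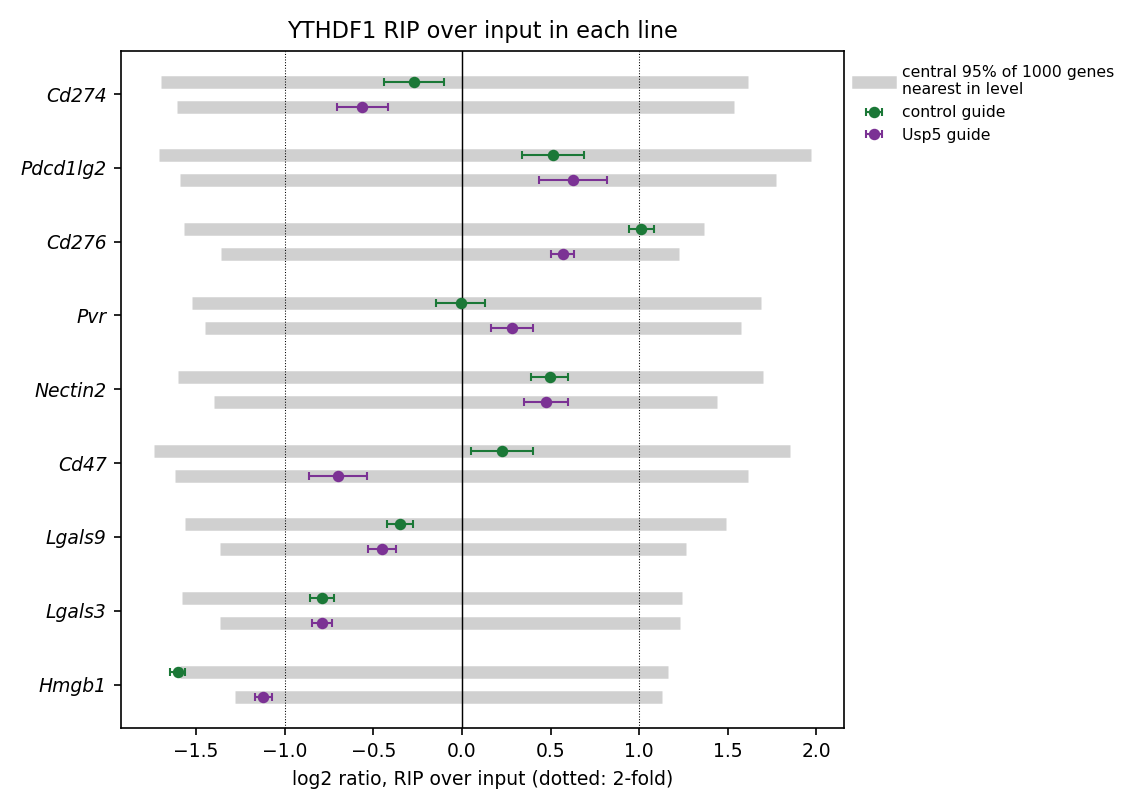
Log2 ratio of YTHDF1 RIP over input (horizontal axis) for 9 of the 10 genes in the line with the control guide (green) and with the Usp5 guide (purple), with 95% counting intervals; grey bars are the central 95% of the 1000 genes nearest in level, and Nt5e, with 0 reads in 1 input, is left out. Cd276 lies to the right in both lines (1.01 and 0.57) and Hmgb1 to the left (-1.60 and -1.12), while Cd47 changes side.

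Counted by the interval alone, Pdcd1lg2, Cd276 and Nectin2 were higher in the precipitate in both lines (3 genes, beside 30.0% of all genes), and Cd274, Lgals9, Lgals3 and Hmgb1 were lower in both (4 genes, beside 28.1%). With library totals the interval of Cd274 in the control line included no difference (-0.26 to 0.08). Cd47 and Nt5e had opposite directions (2 genes, beside 15.3%). Pvr was the remaining gene, with an interval that included no difference in the control line, but lay above it with library totals (0.04 to 0.31). The sign of Cd274 was shared with Lgals9, Lgals3 and Hmgb1 and not with the other B7 family members, Pdcd1lg2 and Cd276.

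The levels with the Usp5 guide were then set against the control guide, in the inputs and in the RIP libraries. In the inputs Cd47, Lgals3, Cd274, Cd276 and Pvr were higher with the Usp5 guide, between 1.22-fold and 1.65-fold, and the other 5 genes were lower. By the size rule 0 of the 10 were higher and 1, Nt5e, was lower, beside 12.4% and 12.1% of all genes. In the RIP libraries 0 of the 10 were past the rule in either direction, beside 4.55% (higher) and 4.64% (lower) of all genes. The median log2 ratio of the 10 was 0.08 in the inputs and -0.18 in the RIP libraries, beside -0.01 in both over all genes. Without Nt5e they were 0.29 and -0.17. No test was made between the guides, because the input and the RIP library of a guide come from 1 lysate. In such bulk libraries fewer cells with an RNA and less of it per cell cannot be told apart.

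Lgals3 was higher with the Usp5 guide by the same factor in both fractions. Its level was 141 and 229 CPM in the control and Usp5 inputs and 81.7 and 132 CPM in the control and Usp5 RIP libraries. The log2 ratio was 0.70 (0.64 to 0.75) in the inputs and 0.70 (0.63 to 0.77) in the RIP libraries, 1.62-fold in each. Both values lay above the spread, whose upper ends were 0.60 and 0.41. Galectin-3 acts inside cells as well as on their surface, and is a common marker of macrophages and of many carcinomas.

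Cd274 was 1.55-fold higher with the Usp5 guide in the inputs (log2 0.63, 0.48 to 0.79) and 1.27-fold higher in the RIP libraries (0.34, 0.18 to 0.50). Both ratios were inside the spread, which reached 1.25 in the inputs and 0.70 in the RIP libraries, and above its upper quartile. Pdcd1lg2, its neighbour, was lower with the Usp5 guide, by 1.22-fold in the inputs (-0.28, -0.49 to -0.08) and by 1.12-fold in the RIP libraries (-0.17, -0.33 to -0.01), also inside the spread.

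Pvr was higher with the Usp5 guide in both fractions, 1.22-fold in the inputs (0.29, 0.15 to 0.43) and 1.49-fold in the RIP libraries (0.58, 0.46 to 0.70). The second value was at the upper end of the spread, 0.58, and inside it when 2000 genes were used in place of 1000. Nectin2, the other TIGIT ligand, was lower in both, 1.37-fold in the inputs (-0.45, -0.58 to -0.33) and 1.39-fold in the RIP libraries (-0.48, -0.58 to -0.38). Its values were inside the spread, whose lower ends were -0.99 and -0.56. The 2 ligands of TIGIT thus stood on opposite sides in each fraction.

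Hmgb1 was lower with the Usp5 guide in the inputs, at 358 against 573.5 CPM (log2 ratio -0.68, -0.71 to -0.64), below the spread, whose lower end was -0.61. In the RIP libraries it was 1.15-fold lower (-0.20, -0.25 to -0.14), inside the spread. Lgals9 was lower in both fractions by small amounts, with log2 ratios of -0.13 (-0.20 to -0.06) and -0.23 (-0.31 to -0.15). Cd276 was 1.29-fold higher in the inputs (0.37, 0.29 to 0.45) and 1.05-fold lower in the RIP libraries (-0.07, -0.13 to -0.02). Cd47 was 1.65-fold higher in the inputs (0.72, 0.56 to 0.89) and 1.15-fold lower in the RIP libraries (-0.20, -0.37 to -0.03), all within the spread. Nt5e was 44.9-fold lower in the Usp5 input when 0 reads is taken as 3 counts, and the counting interval of its log2 ratio ended at -5.17. With 0.5 counts added its log2 ratio was -8.12, inside the spread of -8.24 to 8.08, which is wide at this level. Its 62 and 45 RIP reads gave a log2 ratio of -0.29 (-0.88 to 0.29).

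**Figure D3:**
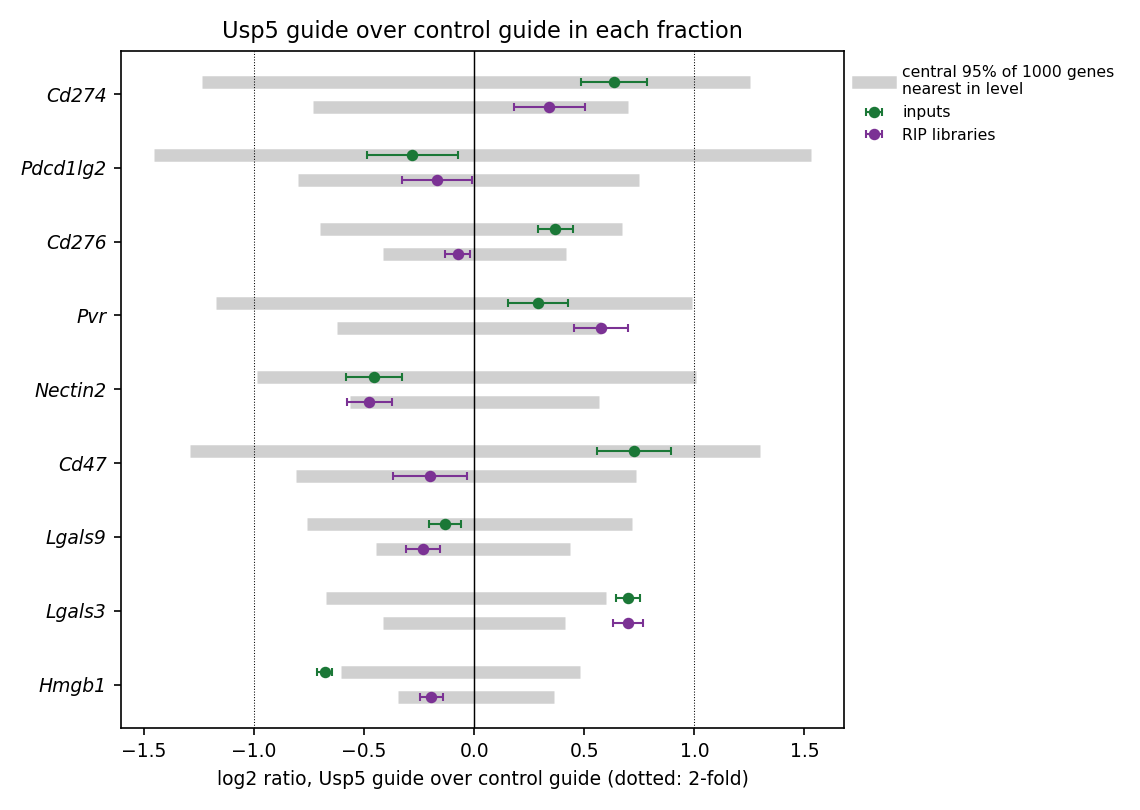
Log2 ratio of the Usp5 guide over the control guide (horizontal axis) for 9 of the 10 genes in the inputs (green) and the RIP libraries (purple), with 95% counting intervals; grey bars are the central 95% of the 1000 genes nearest in level, and Nt5e is left out. Lgals3 lies at 0.70 in both fractions, beyond both grey bars, and Hmgb1 lies beyond its bar in the inputs (-0.68).

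By the interval alone, Cd274, Pvr and Lgals3 were higher with the Usp5 guide in both fractions (3 genes, beside 14.6% of all genes) and Pdcd1lg2, Nectin2, Lgals9 and Hmgb1 were lower in both (4 genes, beside 16.0%). The interval of Pdcd1lg2 in the RIP libraries included no difference under each of the 3 other scalings (upper ends 0.01, 0.01 and 0.00), and that of Lgals9 in the inputs did so with library totals. Cd276 and Cd47 had opposite directions (2 genes, beside 24.6%). The interval of Cd276 in the RIP libraries left out no difference narrowly, ending at -0.02, and at -9.28e-05 with DESeq2 size factors. The input and the RIP library of a guide share a lysate, so a shared direction is not a replicate of the guide.

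**Figure D4:**
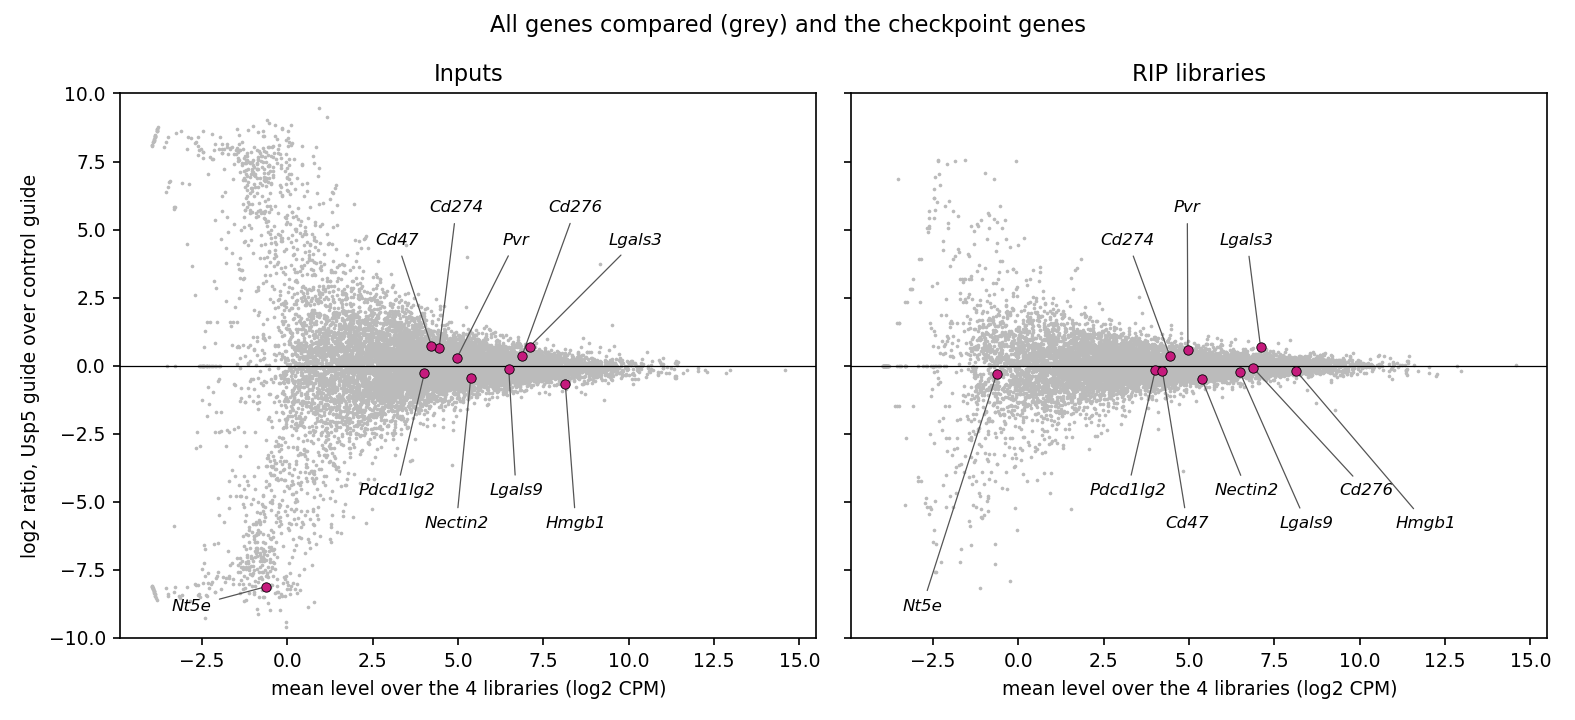
Log2 ratio of the Usp5 guide over the control guide (vertical axis) against the mean level in log2 CPM (horizontal axis) for all 12920 genes compared (grey) and the 10 genes (pink), in the inputs (left) and the RIP libraries (right). The grey cloud is wider in the inputs and widens at low levels, where Nt5e lies at -8.12 in the inputs, a value set by its 0 reads and the 0.5 counts added.

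The ratio of the enrichments compares the recovery of an RNA between the lines. By the size rule 1 of the 10, Nt5e with its 0 reads, was higher with the Usp5 guide, beside 13.3% of all genes, and 0 were lower, beside 13.8%. Lgals3, Nectin2, Lgals9 and Pdcd1lg2 had intervals that included no difference, with log2 values of 0.00 (-0.09 to 0.09), -0.02 (-0.18 to 0.14), -0.10 (-0.21 to 0.01) and 0.11 (-0.14 to 0.37). With library totals the interval of Lgals9 lay below no difference (-0.26 to -0.05). The enrichment of Cd274 was 1.22-fold lower with the Usp5 guide (-0.29, -0.51 to -0.07), that of Cd276 1.36-fold lower (-0.44, -0.54 to -0.35) and that of Cd47 1.90-fold lower (-0.92, -1.16 to -0.69). It was higher for Pvr, 1.22-fold (0.29, 0.11 to 0.47), and for Hmgb1, 1.40-fold (0.48, 0.42 to 0.55). All these values were inside the spread of genes of like level, which for Cd47 ran from -1.46 to 1.45. For Cd274, Cd276, Cd47 and Hmgb1 the inputs differed more between the guides than the RIP libraries did, and for Pvr the RIP libraries differed more. The inputs also differed more over all genes compared. The middle 50% of their log2 ratios ran from -0.44 to 0.44 in the inputs and from -0.25 to 0.23 in the RIP libraries.

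The pattern of Cd274 over the 4 libraries was compared with that of 3688 genes within 1 log2 unit of its mean level. The measure was the Euclidean distance between the 4 log2 CPM values after subtracting the mean of each gene. The nearest were ENSMUSG00000034341, at a distance of 0.06 with 435, 743, 459 and 537 reads in the control input, Usp5 input, control RIP and Usp5 RIP, and ENSMUSG00000028453, at 0.09 with 459, 779, 506 and 525 reads. The median distance was 0.99, and 40 genes (1.08%) lay within 0.25. Their IDs were not paired with names here.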

How the data were processed

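RNA of 4 Hepa 1-6 libraries was measured. The table the authors deposited holds raw read counts per Ensembl ID. HISAT2 2.1.0, featureCounts 1.6.3 and mm10 were used, per the submitters' processing notes. The treatment of strand, multiple matches and duplicates is not given in the sources used here. Columns were matched by the short names in the labels, and 0 were left over. The reference table paired 0 IDs with symbols. Names of the 10 genes come from the list that defines them, and the other fixed lists (further checkpoint ligands, receptors, regulators of Cd274, cell type markers) and Usp5 and Ythdf1 were not analysed here.

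Counts were scaled with TMM factors between 0.926 and 1.06 (edgeR 4.0.16, R 4.3.3), and 0.5 counts were added before log2 ratios. Genes with a mean CPM of at least 1 were compared (12920). Intervals of ratios are exact binomial (Clopper-Pearson), and those of the ratio of enrichments use reciprocal counts. For the folds of Nt5e, 0 reads were taken as 3 counts, which are 0.0841 to 0.105 CPM depending on the library. RIP against input was tested with edgeR's quasi-likelihood test, with line and fraction as terms. Code was tested on simulated data. All 10 genes are reported by the rule for named genes. They, the lists and the tests were chosen with earlier results of these data known. Alternatives were other scaling, added counts, size rules, filters, DESeq2 1.42.0 and no block.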

Additional observations from a re-analysis of the deposited data

Results flagged for a closer look

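Genes are given here whose effect had opposite signs in 2 groups, with counting intervals that left out no difference in each; the difference between the groups was not tested, as each value rests on 2 libraries. Cd47 had a log2 enrichment in the YTHDF1 precipitate of 0.22 with the control guide and -0.70 with the Usp5 guide, and a ratio of Usp5 over control guide of 0.72 in the inputs and -0.20 in the RIP libraries. Both pairs of values come from the same 4 libraries and are 1 contrast, not 2 separate observations. That contrast is the ratio of enrichments, with a log2 value of -0.92, inside the spread of -1.46 to 1.45. The Usp5 input held 800 reads of Cd47, beside 449 in the control input. Cd276 had a log2 ratio of Usp5 over control guide of 0.37 in the inputs and -0.07 in the RIP libraries. Both values were inside the spread, and 24.6% of all genes had opposite directions by this rule. Nt5e had a log2 enrichment of -1.33 with the control guide and 6.51 with the Usp5 guide, where the last value depends on the 0.5 counts added to its 0 input reads.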

How the results depend on the processing

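The spread from 500 and from 2000 genes, settings added after seeing the data, left 5 of 50 values of these genes outside, as did 1000 genes, but with 2000 genes Pvr in the RIP libraries came inside and Nt5e in the inputs (-8.12 against a lower end of -8.09) went outside. Scaling by library totals moved the median log2 ratio of RIP over input of all genes to 0.21 (control) and 0.15 (Usp5), and the enrichments of these genes with it. Cd274 was then at -0.09 in the control line, and Pvr at 0.17 in place of -0.01. No log2 ratio of the 10 genes that was past the size rule changed sign with other scaling or 2 counts added. Those that did were Pvr in the control line with library totals, and the ratios of enrichments of Nectin2 and Lgals3 with DESeq2 size factors (0.01 and 0.03) and upper-quartile factors (0.00 and 0.02). Members past the size rule moved as follows: with DESeq2 size factors 0 were higher in the control line (Cd276 at 0.97), and with library totals 0 were lower in the Usp5 line (Hmgb1 at -0.99). With 1.5-fold as the limit, RIP over input had 1 higher and 3 lower in the control line (29.5% and 26.6% of all genes) and 2 higher and 3 lower in the Usp5 line (27.1% and 25.02%). The inputs had 3 higher and 2 lower (19.9% and 20.0%), the RIP libraries 1 higher and 0 lower (9.55% and 9.90%), and the ratio of enrichments 1 higher and 1 lower (20.6% and 21.7%).

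Of all genes, higher then lower, in the order control RIP over input, Usp5 RIP over input, inputs, RIP libraries and ratio of enrichments, the 1.5-fold limit gave 3809, 3438, 3504, 3233, 2577, 2578, 1234, 1279, 2665 and 2801. A mean CPM of at least 5 gave 1399, 1195, 1101, 993, 658, 630, 109, 115, 738 and 789. At least 10 reads in all gave 4408, 3070, 4179, 2811, 2785, 2832, 2116 and 2063 for the first 4 comparisons, the ratio of enrichments staying within 1.5 times. In edgeR's test over both lines, library totals gave 959 genes lower in place of 1462. Without the line as a replicate block 1 of the 10 genes was lower (Hmgb1), with Lgals3 at an adjusted p of 0.116, and Nt5e was at -0.47 (adjusted p 0.908) in place of 2.11. Cd276 and Hmgb1 passed in every setting run, with adjusted p of at most 0.0277 and 0.00973, DESeq2's Wald test included. Leaving out a line leaves no residual degree of freedom, and the value is then that of the other line. Nt5e had the fewest reads of the 10 genes, 232 in all, beside at least 2115 for each of the other genes.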

Other observations

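Among the 10 genes themselves, the pair with the most similar pattern over the 4 libraries was Pdcd1lg2 and Nectin2, at a Euclidean distance of 0.26 on the log2 scale. Both were higher in the precipitate of each line and lower with the Usp5 guide in each fraction. All these ratios were inside the spread, and neither gene passed the test of RIP against input. For Pdcd1lg2 in the RIP libraries the interval included no difference with every other scaling. This distance was not compared with those of other gene pairs outside the list. The next pair was Cd274 and Cd47, at 0.43, followed by Cd274 and Lgals3, at 0.45. A GC box was found in the 250 bases before the start of 6 of the 9 genes with a promoter sequence, beside 32.9% of all promoters, and a match to the interferon-gamma activated site, the E-box or the AP-1 site in 0 of them, beside 7.18%, 6.05% and 6.87% of all promoters.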
